A study of Mus musculus with 79 samples.

Results

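The 10 genes described here mark the fibroblast layers of peripheral nerve and were followed by gene symbol through the 3 count tables, as 10 of the 23361 genes listed. Etv1, Sox9, Osr2, Abca9 and Wif1 stood for the endoneurial layer, Cldn1 and Lypd2 for the perineurium, Pi16 and Dpt for the epineurium, and Pdgfra for endoneurial and epineurial fibroblasts together. All mice carried an S100β-eGFP transgene, in which a human S100β promoter drives GFP in Schwann cells, and animals of both sexes were used with no age given in the sources used here. In every animal the common peroneal nerve was grafted to the tibial stump inside a silicone conduit, either at once (immediate repair) or 8 weeks after the injury (delayed repair), and in animals of the immediate group the site had been opened and closed, with the nerve exposed only, 8 weeks before their repair. RNA came from the distal (tibial) stump at day 5 after repair, and from macrophages and Schwann cells sorted from the bridge at days 5 and 14. There were 79 libraries from 32 animals, among them 16 stump libraries (9 delayed, 7 immediate), 32 macrophage libraries and 31 Schwann cell libraries, each from a single animal. The tissue field of the stump samples names the bridge, and they were taken as stump from their cell type field.

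Connective tissue wraps a nerve in layers. Endoneurial fibroblasts lie between the axons inside a fascicle, perineurial cells form concentric sleeves sealed by tight junctions around it, and epineurial fibroblasts fill the outer sheath that carries vessels and fat. Etv1, Sox9 and Osr2 encode transcription factors, Abca9 a lipid transporter of the ABC family, Wif1 a secreted inhibitor of Wnt ligands, Cldn1 a claudin of tight junctions, Lypd2 a small membrane-anchored protein, Pi16 a secreted peptidase inhibitor, Dpt the collagen-binding protein dermatopontin, and Pdgfra the receptor for PDGF that marks most fibroblasts.

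The stump libraries held between 3898778 and 9212709 counts, and the markers of their cells set the ground for what follows. Fibroblast collagens were abundant in every stump library, with Col1a1 between 4143 and 20862 CPM (counts scaled to a common library total, the usual CPM). The summed level of the 10 Schwann cell markers ran from 1493 to 3425 CPM after immediate and from 184 to 920 CPM after delayed repair, and the summed 10 endothelial markers from 886 to 1249 CPM and from 1406 to 2134 CPM, so neither pair of groups overlapped. The 8 skeletal muscle markers summed to at most 10.96 CPM after immediate repair but to 2538 CPM in delayed replicate 5, and the 8 adipocyte markers ranged from 78.1 to 1794 CPM over the 16 libraries. The sorted fraction labelled Schwann cell went partly against its label, with a median of 7184 CPM of Ccr7 and 15264 CPM of Cd74, which dendritic cells use, and of 3.65 CPM of S100b at day 5. The 10 Schwann cell markers in that fraction summed to 142 to 1323 CPM at day 5 and to 514 to 3531 CPM at day 14. The fraction is called the Schwann cell fraction below only as the name of that sort.

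Sox9 was lower in the distal stump after delayed than after immediate repair, and no other member passed the test. Of the 10 members, 8 passed the minimum of 5 CPM in at least 6 libraries, and 1 of these 8 (12.5%) differed at an adjusted p under 0.05 by the quasi-likelihood test of edgeR, against 26.3% of the 12229 genes tested. The fold was 1.85 for Sox9, and genes called lower made up 13.5% of those tested. The median log2 fold change (delayed over immediate) was −0.13 over the 8 members and 0.02 over all genes tested. In none of the 10 members did the groups fail to overlap, which occurred in 4.44% of the genes tested. In bulk tissue, fewer cells of a type and less RNA per cell cannot be told apart.

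**Figure D1:**
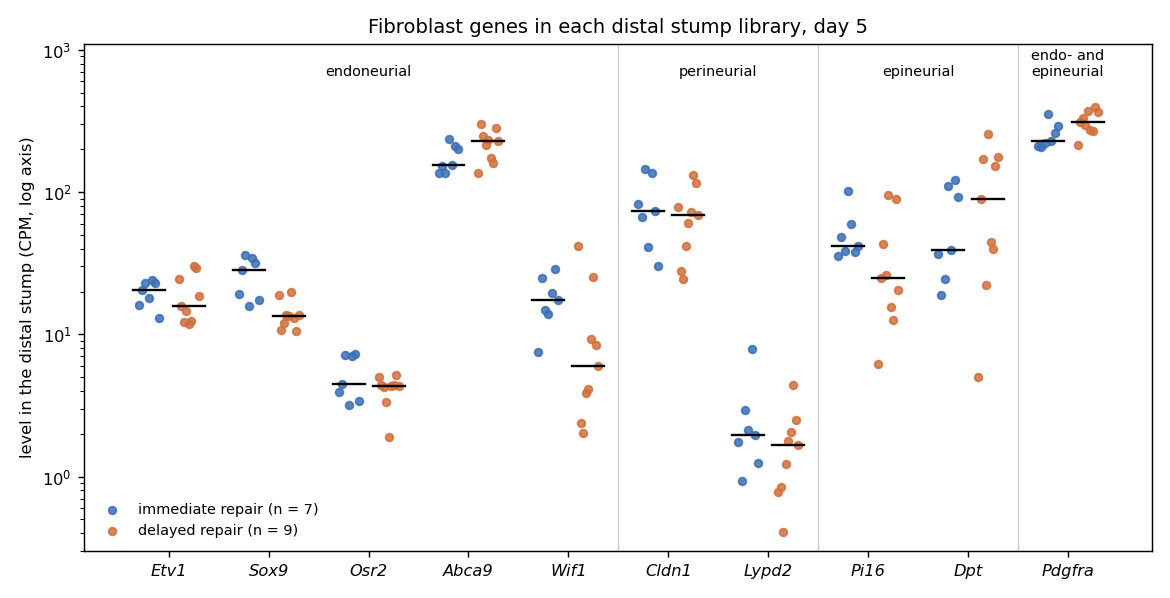
Level of each member (CPM, log axis) in the 16 distal stump libraries at day 5, with immediate repair (n = 7) in blue, delayed repair (n = 9) in orange and black bars at group medians. Sox9 sits lower after delayed repair (10.6 to 19.7 CPM against 15.7 to 36.1), while Dpt spans 5.04 to 255 CPM among delayed libraries alone.

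Among the endoneurial genes, Sox9, a transcription factor best known from cartilage and the neural crest, lay at a lowest level of 15.7, a median of 28.5 and a highest of 36.1 CPM after immediate repair. After delayed repair it lay at 10.6, 13.4 and 19.7 CPM. Of the 9 delayed libraries 7 were below every immediate one, and the overlap came from delayed replicates 1 and 6 and immediate replicates 1, 4 and 8. The log2 fold change was −0.88 (SE 0.19, 95% interval −1.28 to −0.49, edgeR adjusted p = 0.00234), lower in 9 of 9 delayed libraries than the immediate mean. It is annotated at chr11:112782224-112787760 on the plus strand (GENCODE vM21, GRCm38, the build used for all positions here). The summed Schwann cell markers moved with this difference, since they were lower in every delayed library, and their part in it was not tested.

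Abca9 was the most abundant endoneurial member. Its levels were 137, 156 and 238 CPM (lowest, median, highest) after immediate and 137, 230 and 301 CPM after delayed repair. The lowest values of the groups were alike, and 3 delayed libraries were above every immediate one. The difference of 0.35 in log2 (SE 0.17, interval −0.02 to 0.72) had an edgeR adjusted p of 0.151. Abca9 (chr11:110100749-110168196, minus strand) lies beside its relatives Abca8a, Abca8b and Abca6 in a gene cluster, and reads shared among near-identical stretches of these genes could be divided among them in a way the count tables do not show.

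Wif1 (chr10:121033960-121100650, plus strand), the Wnt inhibitor, had the widest range among the delayed libraries of the 5 endoneurial members, 20.7 times from lowest to highest. After immediate repair it ran from 7.45 through a median of 17.6 to 28.8 CPM, and after delayed repair from 2.02 through 6.01 to 41.9 CPM. Among the delayed libraries 5 were below all immediate ones, while delayed replicates 1 (41.9 CPM) and 7 (25.4 CPM) were among the highest of all. The log2 fold change was −0.67 (SE 0.52, edgeR adjusted p = 0.365). Without delayed replicate 1 it was −1.25 with an adjusted p of 0.0428, and limma-voom with sample quality weights gave −1.58 and 0.0123.

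Etv1 (chr12:38779380-38870484, plus strand), an ETS factor downstream of growth factor signaling, lay at 13.0, 20.5 and 24.2 CPM after immediate and at 11.9, 15.9 and 30.1 CPM after delayed repair. Of the delayed libraries 3 were below and 3 above all immediate ones. The log2 fold change was −0.04 (SE 0.21, interval −0.49 to 0.41, edgeR adjusted p = 0.910). Osr2 (chr15:35296098-35303305, plus strand), a zinc finger factor of connective tissue, was below the minimum for testing, with 14 to 67 counts per library. It lay at 3.17, 4.51 and 7.27 CPM after immediate and at 1.91, 4.36 and 5.21 CPM after delayed repair. The 3 highest values were all of immediate libraries, and the mean log2(CPM + 1) differed by −0.25 (2-sided exact permutation test over 11440 divisions of the libraries, p = 0.223, not adjusted).

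In the perineurium, Cldn1 (chr16:26356642-26371841, minus strand) was read in every stump library, at 30.3, 73.1 and 145 CPM after immediate and 24.3, 69.1 and 131 CPM after delayed repair. The groups overlapped over nearly their whole range, with a log2 fold change of −0.22 (SE 0.36, interval −0.99 to 0.54, edgeR adjusted p = 0.687). Lypd2 (chr15:74732247-74734329, minus strand) was scarce, with 2 to 50 counts per library. It lay at 0.928, 1.95 and 7.85 CPM after immediate and at 0.405, 1.67 and 4.38 CPM after delayed repair. In 3 delayed libraries it was below all immediate ones, and the mean log2(CPM + 1) differed by −0.36 (2-sided exact permutation test, p = 0.302, not adjusted). In each of the 16 libraries Cldn1 counts were above Lypd2 counts, with a median ratio of 36.3.

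The epineurial genes varied widely between animals of the same repair group. Dpt (chr1:164796644-164824266, plus strand), which binds collagen fibrils in loose connective tissue, lay at 18.8, 39.1 and 121 CPM after immediate repair and at 5.04, 89.6 and 255 CPM after delayed repair. Of the delayed libraries 4 were above and 1 was below all immediate ones. The log2 fold change was 0.78 (SE 0.61, interval −0.50 to 2.06, edgeR adjusted p = 0.365), and the highest library was 50.6 times the lowest over all 16. Pi16 (chr17:29317680-29330593, plus strand), a marker of adventitial fibroblasts, lay at 35.7, 41.6 and 103 CPM after immediate and at 6.21, 25.1 and 95.7 CPM after delayed repair. In 6 of the 9 delayed libraries it was below every immediate one, yet delayed replicates 5 and 8 were near the top of all values, and the log2 fold change was −0.45 (SE 0.46, edgeR adjusted p = 0.508). Delayed replicate 5, the library with 2538 CPM of muscle markers, had the highest delayed level of both genes, and without it the log2 fold change was 0.50 for Dpt and −0.78 for Pi16, with edgeR adjusted p of 0.566 and 0.200.

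Pdgfra (chr5:75152292-75198215, plus strand) varied least of the 10, with 208, 229 and 356 CPM after immediate and 215, 312 and 394 CPM after delayed repair. It was above the immediate mean in 8 of the 9 delayed libraries, though immediate replicate 4, at 356 CPM, was above 6 of the delayed ones. The log2 fold change was 0.34 (SE 0.15, interval 0.03 to 0.64) with an unadjusted p of 0.0326 and an edgeR adjusted p of 0.0961. Without immediate replicate 4 it was 0.43 with an adjusted p of 0.0248, and without delayed replicate 1 it was 0.38 with an adjusted p of 0.0442.

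Per kilobase of annotated exons (GENCODE vM21, GRCm38), the median stump levels of the members ran from 38.9 CPM per kb for Dpt through 28.01 for Pdgfra, 25.4 for Abca9, 14.6 for Cldn1, 6.01 for Pi16, 4.75 for Wif1, 4.01 for Sox9, 2.60 for Lypd2 and 1.38 for Etv1 to 1.21 for Osr2. The ranges over the 16 libraries of each pair of neighbours in this order overlapped. Some members further apart in the order did not overlap, such as Abca9 (17.0 to 37.4) and Pi16 (0.976 to 16.1), or Sox9 (2.56 to 8.72) and Etv1 (0.893 to 2.27).

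Both sexes were present in each group. In males Sox9 had a median of 23.8 CPM after immediate (n = 4) and 12.8 CPM after delayed repair (n = 4), and in females of 31.5 CPM (n = 3) and 13.4 CPM (n = 5). Of the 8 members tested, Cldn1 had the smallest p for a difference between the sexes, with medians of 74.4 and 34.7 CPM in males and of 73.1 and 72.3 CPM in females after immediate and delayed repair. The difference between these differences (male minus female) was −1.12 in log2 (SE 0.67, unadjusted p = 0.116, edgeR adjusted p = 0.9999), and that of Pi16 was −1.22 (SE 0.94, edgeR adjusted p = 0.9999). The interaction of repair and sex was called for 0 genes by edgeR, with 272 of 12229 (2.22%) at an unadjusted p under 0.05 and no member among them.

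The other genes of each layer and pathway were taken from hand-written lists, whose counts stand beside the 26.3% of all genes tested that were called, 12.8% higher and 13.5% lower. Of 7 further endoneurial genes, all tested, 3 fell and 0 rose. Apod, a secreted lipid carrier made by endoneurial fibroblasts, went from 2681 to 6378 CPM after immediate to 187 to 2775 CPM after delayed repair (log2 fold change −2.30, SE 0.43, edgeR adjusted p = 0.000919). Plxdc1 fell by 0.92 (SE 0.21, adjusted p = 0.00375) and Abca6 by 0.66 (SE 0.22, adjusted p = 0.0363). The call of Abca6 was lost in 6 of the 16 fits that left out a library (delayed replicates 3, 4 and 6 and immediate replicates 2, 6 and 7, with −0.65 to −0.58 and adjusted p from 0.0559 to 0.0814), while those of Apod and Plxdc1 remained in all 16. Abca8a (−0.12, SE 0.24) and Abca8b (−0.10, SE 0.18), relatives of Abca9 named after their values were seen, did not pass the test. The median of the list was −0.12, against 0.02 over all genes tested. The Schwann cell markers moved with the 3 genes that fell (9 of 10 called lower), and their part in these differences was not tested.

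Of 12 further perineurial genes 10 were tested, and 2 fell and 0 rose. Mpzl2, an adhesion protein, had a log2 fold change of −0.95 (SE 0.29, edgeR adjusted p = 0.0204) and Sbspon, a secreted matrix protein, of −0.93 (SE 0.30, adjusted p = 0.0303). The Sbspon call was lost without delayed replicate 4 (−0.88, adjusted p = 0.0510), immediate replicate 2 (−0.90, 0.0594) or immediate replicate 6 (−0.82, 0.0732). Perp, a desmosome-linked gene, had −1.04 (SE 0.39, adjusted p = 0.0566) and was called in 5 of the 16 fits that left out a library, those without delayed replicate 6 or 7 or immediate replicate 4, 7 or 8 (−1.21 to −1.14, adjusted p from 0.0196 to 0.0489), and by DESeq2 (−1.05, adjusted p = 0.0282). The median of the 10 was −0.73, and the junction genes Tjp1 (−0.05, SE 0.14) and Cldn12 (0.15, SE 0.11), named after their values were seen, did not pass the test.

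Of 14 further epineurial genes, all tested, 1 rose and 2 fell, a share below the 26.3% of all genes called. Pcolce2, which aids the cutting of procollagen, was the largest of these differences. It lay between 30.02 and 67.6 CPM after immediate and between 3.67 and 13.1 CPM after delayed repair with no overlap (log2 fold change −2.60, SE 0.23, edgeR adjusted p = 9.26e-07). Adamts5, an aggrecan-cutting protease, had −0.58 (SE 0.14, adjusted p = 0.00594), and Cd34, a surface protein of fibroblasts and also of endothelium, 0.44 (SE 0.10, adjusted p = 0.00319). The endothelial markers rose with Cd34 (8 of 10 called higher), and their part in it was not tested.

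**Figure D2:**
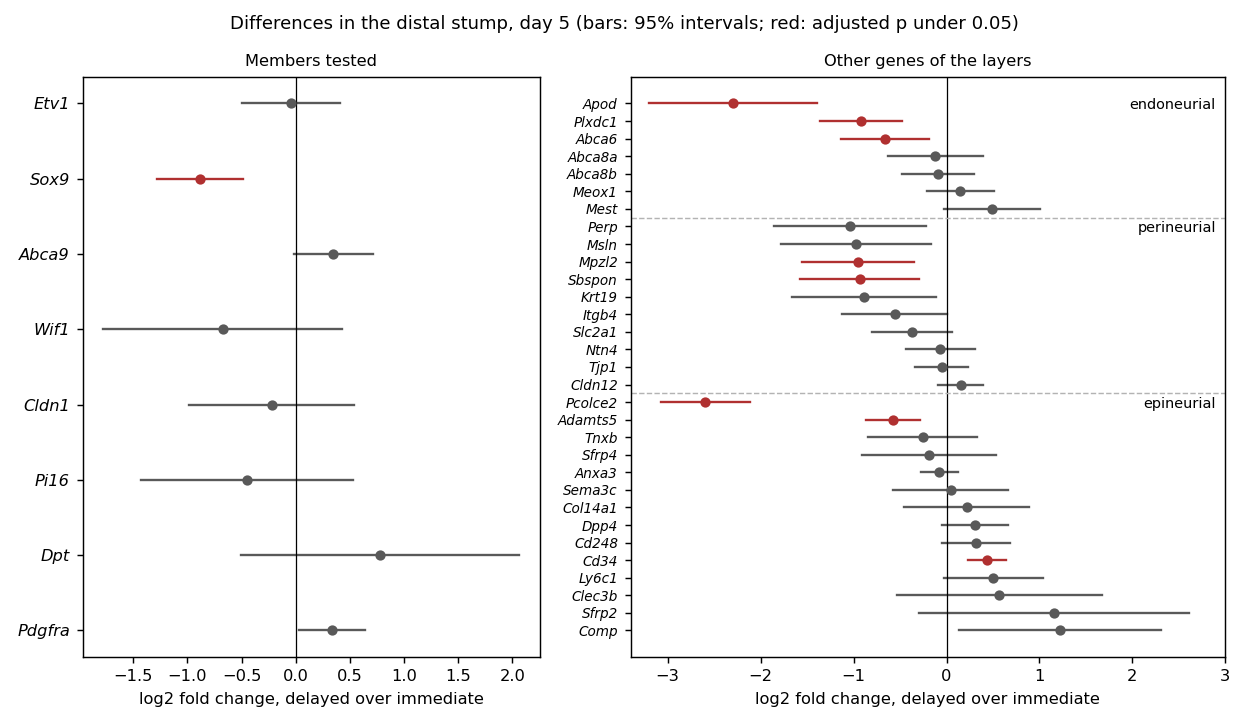
Fitted log2 fold changes (delayed over immediate, x axis) with 95% intervals for the 8 members tested (left) and for the other genes listed for each layer (right), in the distal stump at day 5, with red for an edgeR adjusted p under 0.05. Sox9 is the only member in red, and Apod (−2.30) and Pcolce2 (−2.60) are the largest differences among the other layer genes.

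The 15 genes common to all fibroblasts gave no call by edgeR. Their median log2 fold change was 0.34, with Fbln2 at 0.46 (SE 0.18, edgeR adjusted p = 0.0653) and Col1a1 at 0.61 (SE 0.28, adjusted p = 0.120). Fbln2 was called with DESeq2 (0.45, adjusted p = 0.0444) and without delayed replicate 4 (0.51, 0.0436) or immediate replicate 4 (0.61, 0.00838). Of 12 genes of injury-activated fibroblasts 3 rose and 0 fell, near the 26.3% of all genes called. Runx1, a transcription factor, had 0.68 (SE 0.12, edgeR adjusted p = 0.000572), and Acta2, the smooth muscle actin of myofibroblasts and mural cells, 0.65 (SE 0.14, adjusted p = 0.00253). Ltbp2, a matrix protein, had 1.03 (SE 0.33, adjusted p = 0.0287), and 10 of the 16 fits that left out a library kept its call. It was lost without delayed replicate 5 or 9 or immediate replicate 1, 2, 3 or 6, with adjusted p up to 0.0690. Mural cell markers moved with Acta2, since 4 of 8 were called higher, and their part in it was not tested. Cspg4, a mural marker named after its values were seen, was called lower (−0.67, SE 0.21, edgeR adjusted p = 0.0258).

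Around Pdgfra, 3 of 6 other PDGF genes rose and 1 fell. Pdgfb, a ligand, was at 30.8 to 52.2 CPM after immediate and 48.9 to 99.6 CPM after delayed repair (0.75, SE 0.15, edgeR adjusted p = 0.00185). The receptor Pdgfrb, of mural cells and fibroblasts, had 0.41 (SE 0.10, adjusted p = 0.00735), and the ligand Pdgfd, named after its values were seen, 0.49 (SE 0.16, adjusted p = 0.0354). Pdgfa, the main ligand of Pdgfra, had −0.63 (SE 0.20, adjusted p = 0.0254), and its call was lost without immediate replicate 2 (−0.55, 0.0658) or 3 (−0.54, 0.0558). Endothelial markers (8 of 10 called higher) and mural markers (4 of 8 called higher, 1 lower) moved with Pdgfb and Pdgfrb, and their part in these differences was not tested.

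Around Wif1, 16 of 26 genes of Wnt signaling were tested, of which 5 fell and 1 rose. Lgr6, a receptor for R-spondins, fell from 11.7 to 44.9 CPM after immediate to 0.202 to 9.64 CPM after delayed repair (−3.21, SE 0.47, edgeR adjusted p = 0.000116). The secreted inhibitors Frzb (−2.89, SE 0.53, adjusted p = 0.000765) and Sfrp5 (−1.73, SE 0.32, adjusted p = 0.000889) fell as well, while the inhibitor Sfrp1 rose (1.13, SE 0.33, adjusted p = 0.0168), and Sfrp1 was named after its values were seen. The Schwann cell markers moved with the genes that fell (9 of 10 called lower), and their part in these differences was not tested. The median over the 16 was 0.06.

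Around Etv1 and Sox9, 11 of 12 relatives and targets were tested, and 6 fell and 0 rose. The Schwann cell markers fell with them (9 of 10 called lower), and their part in these differences was not tested. Col2a1, the collagen that Sox9 drives in cartilage, lay between 13.1 and 73.8 CPM after immediate repair and between 0 and 1.36 CPM after delayed repair. Matn4, a matrix protein, lay between 30.5 and 86.1 CPM and between 0.607 and 6.40 CPM. Neither pair of groups overlapped, with log2 fold changes of −6.47 (SE 0.53, edgeR adjusted p = 4.49e-07) and −4.60 (SE 0.31, adjusted p = 1.17e-07). Spry2, an inhibitor of growth factor signaling, fell by 0.78 (SE 0.11, adjusted p = 8.83e-05), and so did Etv4, an ETS factor (−0.98, SE 0.31, adjusted p = 0.0277). Dusp6 (−0.18, SE 0.11) and Etv5 (−0.14, SE 0.11), which respond to the same signaling, did not pass the test, and these last 3 genes were named after their values were seen. Col2a1 had 0 counts in all 31 libraries of the Schwann cell fraction and a highest level of 0.350 CPM in macrophages. The Schwann cell fraction went partly against its label, and both sorts were prepared with another kit than the stump. Which cells of the stump held Col2a1 was not tested.

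Around Cldn1, 7 of 17 claudins and junction genes were tested, of which 3 rose and 3 fell. Jam3 fell by 0.75 (SE 0.15, edgeR adjusted p = 0.00146), and F11r rose by 0.42 (SE 0.11, adjusted p = 0.0128). Cldn5, which endothelial cells use and which was named after its values were seen, rose by 0.71 (SE 0.19, adjusted p = 0.0129). The median over the 7 was 0.19. Beside these lists, 9 of 10 Schwann cell markers fell (median −2.67), 2 of 9 macrophage and 3 of 8 dendritic cell markers rose, and 0 of 6 adipocyte markers passed the edgeR test. Over the 16 fits that left out a library, the call of Csf1r held in 16, of Emr1 in 8, of Cd74 in 6 and of Xcr1 and Flt3 in 3 each, with adjusted p up to 0.0813 for Emr1, 0.0683 for Cd74, 0.109 for Xcr1 and 0.115 for Flt3.

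The members were then set against each other over the stump libraries, as deviations of log2(CPM + 1) from the mean of their repair group. Among all tested genes, the 5 most like Abca9 were Tbc1d2b (Pearson r = 0.92, n = 16), Lpl (0.91), Sfrp2 (0.91), Fcgrt (0.90) and Zcchc5 (0.89). Lpl encodes lipoprotein lipase and Sfrp2 a secreted Wnt modulator of adventitial fibroblasts. The 5 most like Cldn1 were Eda (0.97), Foxp2 (0.95), Fzd2 (0.95), Mpzl2 (0.94) and Ntn1 (0.94), where Mpzl2 is 1 of the perineurial genes above. The 5 most like Dpt were 3632451O06Rik (0.97), Mfap5 (0.92), Lrrc17 (0.92), Postn (0.91) and Col6a1 (0.91), with 3 of them (Mfap5, Postn and Col6a1) on the fibroblast lists. These genes were picked as the highest, so no p is given, and libraries share depth and composition. Without the 2 libraries farthest from the median of the member, r stayed between 0.84 and 0.96 for these 15 genes. For Sox9, added after its values were seen, Col2a1 came first (r = 0.91, and 0.87 without the 2 farthest libraries). Col2a1 lay between 0 and 1.36 CPM over the delayed libraries, near the floor, and between 13.1 and 73.8 CPM over the immediate ones. How far this r rests on the immediate libraries was not tested.

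Pairs of members were compared within the repair groups, a relation added after the values were seen. Dpt and Pdgfra went together after delayed repair (Pearson r = 0.92, exact permutation p = 0.000807, Spearman rho = 0.85, exact permutation p = 0.00607, n = 9) and after immediate repair (r = 0.83, p = 0.0190, rho = 0.86, p = 0.0238, exact permutation, n = 7). Abca9 and Pdgfra had r = 0.84 (p = 0.00492, rho = 0.78, p = 0.0172, n = 9) and r = 0.92 (p = 0.00556, rho = 0.82, p = 0.0341, n = 7) in the same exact permutation tests. Pi16 and Pdgfra had r = 0.88 (p = 0.00156, rho = 0.87, p = 0.00451, exact permutation, n = 9) after delayed repair, but r = 0.67 (p = 0.0905, rho = 0.39, p = 0.396, exact permutation, n = 7) after immediate repair, where r was −0.11 without the 2 farthest libraries. After delayed repair Abca9 went against Wif1 (r = −0.83, p = 0.00590, rho = −0.75, p = 0.0255) and against Sox9 (r = −0.82, p = 0.00778, rho = −0.78, p = 0.0172) in exact permutation tests (n = 9), and r without the 2 farthest libraries was −0.43 and −0.71. After immediate repair Abca9 had r = 0.33 with Wif1 (p = 0.481, rho = 0.25, p = 0.595, exact permutation, n = 7) and r = −0.50 with Sox9 (p = 0.239, rho = −0.57, p = 0.200, exact permutation, n = 7), the latter 0.28 without the 2 farthest libraries. After adjustment over the 72 correlations computed, 0 passed 0.05, with the lowest adjusted p of 0.0561 for Dpt and for Pi16 with Pdgfra after delayed repair (exact permutation, n = 9). Without the 2 libraries farthest from the median of the first gene, r was 0.92 for Dpt, 0.79 for Pi16 and 0.57 for Abca9 with Pdgfra after delayed repair. The summed adipocyte markers had r = 0.75 with Pdgfra after delayed repair (p = 0.0204, rho = 0.90, p = 0.00203, exact permutation, n = 9, adjusted p of r = 0.0978) and r = 0.66 after immediate repair (p = 0.106, rho = 0.25, p = 0.595, exact permutation, n = 7), the latter 0.14 without the 2 farthest libraries. With Pi16 they had r = 0.74 after delayed repair (p = 0.0249, rho = 0.80, p = 0.0138, exact permutation, n = 9) and r = 0.96 after immediate repair (p = 0.00694, rho = 0.71, p = 0.0881, exact permutation, n = 7), the latter 0.34 without the 2 farthest libraries. With Dpt they had r = 0.72 (p = 0.0261, rho = 0.82, p = 0.0108, exact permutation, n = 9) and r = 0.41 (p = 0.387, rho = 0.29, p = 0.556, exact permutation, n = 7), and with Abca9 r = 0.68 (p = 0.0442, rho = 0.82, p = 0.0108, n = 9) and r = 0.59 (p = 0.151, rho = 0.61, p = 0.167, n = 7) in the same exact tests. The part of the adipocyte markers in the relations between members was not tested.

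**Figure D3:**
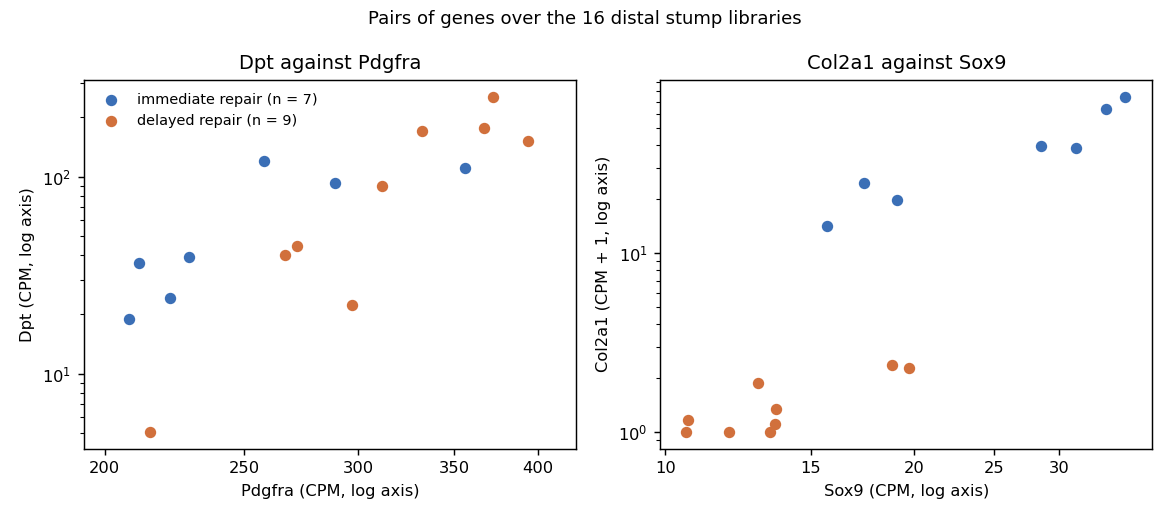
Dpt against Pdgfra (left, both axes CPM on a log scale) and Col2a1 (CPM + 1, log axis) against Sox9 (CPM, log axis) (right), with each point 1 of the 16 distal stump libraries. Dpt is higher where Pdgfra is higher in both repair groups, and delayed replicate 1 lies at 5.04 CPM of Dpt, while all delayed libraries sit at 1.36 CPM of Col2a1 or below.

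For Pdgfra, for Abca9 and Dpt, whose r with it was positive in both repair groups with and without the farthest libraries, and for Cldn1, which had other genes most like it, the sequences before the gene are shown so that they can be compared. They are the bases from 250 to 51 before the RefSeq start of each gene (RefSeq, GRCm38.p6), 200 bases each, written 5′ to 3′ on the strand of the gene, with capitals for matches to CANNTG (the E-box bound by helix-loop-helix factors such as Twist1). The table of promoters matched 7 of the 10 members.
Abca9, chr11:110168204-110168403, minus strand: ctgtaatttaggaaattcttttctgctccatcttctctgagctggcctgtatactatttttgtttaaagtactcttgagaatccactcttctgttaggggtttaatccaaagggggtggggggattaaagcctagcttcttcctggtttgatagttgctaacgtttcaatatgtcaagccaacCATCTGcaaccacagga
Dpt, chr1:164796413-164796612, plus strand: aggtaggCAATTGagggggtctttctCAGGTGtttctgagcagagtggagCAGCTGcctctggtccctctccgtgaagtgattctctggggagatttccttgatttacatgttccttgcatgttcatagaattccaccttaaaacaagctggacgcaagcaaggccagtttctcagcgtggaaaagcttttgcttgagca
Pdgfra, chr5:75152001-75152200, plus strand: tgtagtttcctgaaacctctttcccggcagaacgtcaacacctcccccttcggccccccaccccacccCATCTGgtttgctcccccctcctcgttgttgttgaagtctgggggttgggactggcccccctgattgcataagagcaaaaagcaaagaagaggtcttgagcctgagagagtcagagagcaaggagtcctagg
Cldn1, chr16:26371890-26372089, minus strand: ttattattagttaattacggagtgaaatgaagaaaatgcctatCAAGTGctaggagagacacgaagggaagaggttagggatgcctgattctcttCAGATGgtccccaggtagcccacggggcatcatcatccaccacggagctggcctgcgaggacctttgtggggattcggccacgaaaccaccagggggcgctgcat

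Dpt held 3 E-boxes in this window, Cldn1 2, and Abca9 and Pdgfra 1 each. Abca9 and Pdgfra held the same letters, CATCTG, and Cldn1 held them on its other strand, printed as CAGATG. At least 1 E-box was present in 59.1% of the 32851 promoter windows of this length. CANNTG reads alike in both directions and was counted once per place. Neither TGANTCA (the AP-1 motif, in 5.57% of the windows) nor GGAATG (the TEAD motif, in 10.7%), searched on both strands, was found in these 4 windows. CpG dinucleotides numbered 1 for Abca9, 3 for Dpt, 4 for Pdgfra and 8 for Cldn1, against a median of 4 over all windows. Of the member windows not printed, that of Wif1 held 2 E-boxes and 16 CpG, and that of Pi16 held 0 E-boxes and 2 CpG. Etv1 had an entry for each of 2 starts, of which the upstream window held 0 E-boxes, 1 TEAD motif and 7 CpG and the other 2 E-boxes and 0 CpG. A match is a description of letters and not of binding.

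The sorted fractions served as a check of carry-over, since fibroblasts were stained by Thy1.2 and gated away from both sorts. In macrophages, most of the members were at or near 0. Wif1 had 0 counts in all 17 libraries of day 5, where 3 counts would be at most 0.201 CPM, and Lypd2 had 0 counts in all 32 macrophage libraries. Pdgfra was seen in 3 of 17 libraries at day 5 and in 8 of 15 at day 14, with a median of 0 and 0.104 CPM and a highest level of 4.78 CPM. Sox9, Osr2, Cldn1 and Dpt reached at most 2.47, 0.721, 0.974 and 2.16 CPM.

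Abca9 was counted in each of the 32 macrophage libraries, between 18.3 and 70.0 CPM at day 5 (median 44.2) and between 31.8 and 139 CPM at day 14 (median 82.9). Its counts were above those of Pdgfra in all 32, with a ratio of summed counts to Pdgfra of 108 at day 5 and 188 at day 14, whereas that ratio was 0.697 in the stump, where Pdgfra was above Abca9 in all 16 libraries. Its relatives were low there. Abca8a and Abca8b had medians of 0 CPM in macrophages at day 5 against 135 and 49.6 CPM in the stump, and Abca6 a median of 0.275 CPM against 53.6 CPM.

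Etv1 was the other member found in every macrophage library, at 3.92 to 24.0 CPM at day 5 (median 8.25) and 1.27 to 11.6 CPM at day 14 (median 3.96). Pi16 was counted in 31 of 32 libraries but stayed at 3.97 CPM or below. The sorted cells and the stump were prepared with different library kits, so these levels are given side by side and untested.

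**Figure D4:**
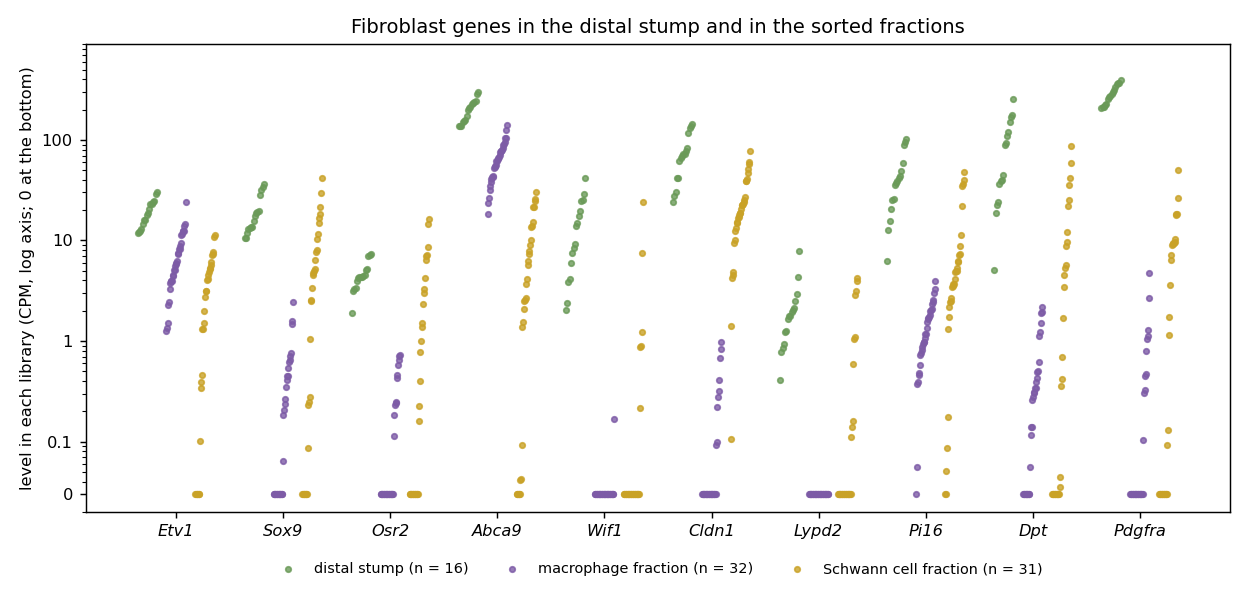
Level of each member (CPM, log axis, with 0 drawn at the bottom) in the distal stump (n = 16), the macrophage fraction (n = 32) and the Schwann cell fraction (n = 31), points sorted by level within each column. Abca9 and Etv1 are above 0 in every macrophage library, and Cldn1 is above 0 in every library of the Schwann cell fraction.

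No member passed the test between repair groups in macrophages. At day 5 the 2 members tested gave 0 calls by edgeR and by DESeq2, against 0.0357% of 8409 genes called by edgeR, with log2 fold changes of 0.03 for Abca9 (SE 0.21, interval −0.42 to 0.47) and 0.38 for Etv1 (SE 0.29, interval −0.23 to 0.997). At day 14 only Abca9 was tested (−0.19, SE 0.21, interval −0.65 to 0.26, edgeR adjusted p = 0.9999), where 0 of 8589 genes (0%) were called by edgeR and 190 had an unadjusted p under 0.05. No member had an unadjusted p under 0.05 in either comparison.

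Abca9 was higher in macrophages at day 14 than at day 5 after immediate repair. This comparison was added after the levels were seen. After immediate repair its levels went from 23.8, 43.6 and 61.9 CPM (lowest, median, highest, n = 8) at day 5 to 76.2, 85.8 and 139 CPM (n = 8) at day 14, with no overlap. The log2 fold change was 0.92 (SE 0.18, edgeR adjusted p = 0.00235), where 11.3% of 8507 genes were called and 2.77% did not overlap. The 8 dendritic cell markers moved with it, since 3 of the 5 tested were called higher and their summed level went from 1035 to 3751 CPM at day 5 to 7721 to 14631 CPM at day 14, while the median of Flt3 was 0 CPM on both days. Their part in the change of Abca9 was not tested. After delayed repair the levels were 18.3, 52.7 and 70.0 CPM (n = 9) and 31.8, 79.1 and 125 CPM (n = 7), which overlapped, and the summed dendritic cell markers went from 1724 to 4707 CPM to 6855 to 17836 CPM. Abca9 had a log2 fold change of 0.70 (SE 0.24, edgeR adjusted p = 0.0932), where 6.41% of 8529 genes were called. DESeq2 (adjusted p = 0.0458) and the fit without day 14 replicate 1 (0.83, adjusted p = 0.0285) called it there. The difference between the repair groups in this change was −0.22 in log2 (SE 0.31, interval −0.86 to 0.42, edgeR adjusted p = 0.9999, n = 32 libraries), where 0.0223% of 8949 genes were called.

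Etv1 had the opposite sign from day 5 to day 14, with −0.94 (SE 0.42, edgeR adjusted p = 0.161) after immediate and −1.08 (SE 0.35, adjusted p = 0.0729) after delayed repair. It was called without day 14 replicate 8 of the immediate group (−1.26, adjusted p = 0.0495) and without day 14 replicate 6 of the delayed group (−1.39, adjusted p = 0.0203). DESeq2 called it in the delayed group (−1.08, 0.0221), and limma-voom with sample quality weights in both groups (−1.44, 0.0134, and −1.12, 0.0328).

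**Figure D5:**
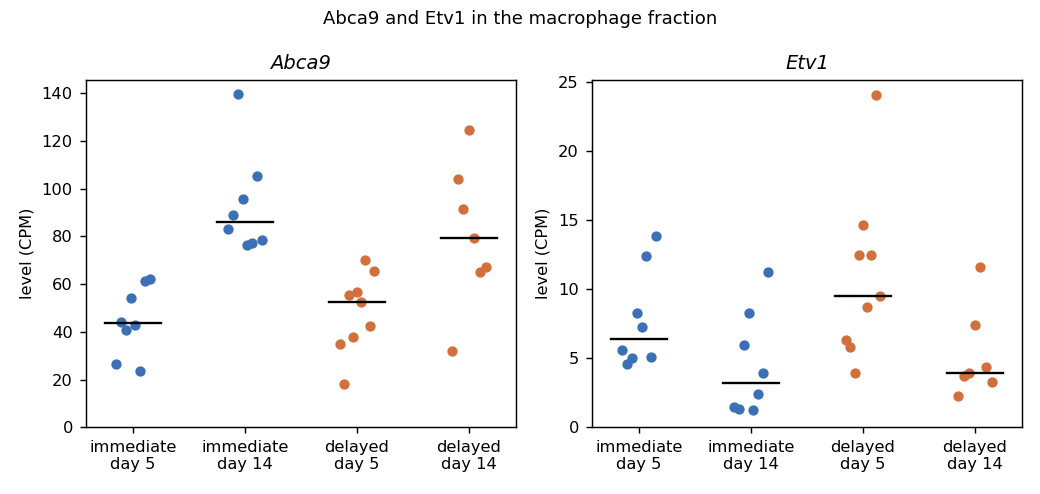
Abca9 (left) and Etv1 (right) in the macrophage fraction (CPM), with each point a library and black bars at group medians. After immediate repair the Abca9 levels of day 14 (76.2 to 139 CPM) lie above all of day 5 (23.8 to 61.9 CPM), while the groups of delayed repair and all groups of Etv1 overlap.

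In the Schwann cell fraction, fibroblast genes were present in a share of the libraries that differed from gene to gene. The summed level of the 15 genes of all fibroblasts ran from 182 to 10237 CPM at day 5 and from 1475 to 22714 CPM at day 14. Cldn1 was counted in all 31 libraries, from 0.105 to 60.1 CPM at day 5 (median 20.7) and from 1.40 to 77.2 CPM at day 14 (median 18.1), although Lypd2 had counts in only 10 of them. Pdgfra had counts in 8 of 16 libraries at day 5 and in 10 of 15 at day 14, with medians of 0.0656 and 3.64 CPM and a highest level of 49.8 CPM. Pi16 (median 3.51 CPM at day 5 and 7.18 CPM at day 14), Abca9 (3.21 and 7.90 CPM) and Sox9 (1.77 and 7.70 CPM) were more often present, and Wif1 was at 0 in 25 of the 31 libraries. Where a library was at 0, 3 counts of its total would be at most 0.258 CPM, a limit of counting only.

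No member passed the test between repair groups in this fraction on either day. At day 5, 3 members were tested and 0 were called by edgeR, where 0 of 9604 genes (0%) were called and 505 had an unadjusted p under 0.05. Abca9 had 0.91 (SE 1.51), Cldn1 0.42 (SE 0.63) and Pdgfra −0.75 (SE 1.67). At day 14, 6 members were tested and 0 were called by edgeR, where 0 of 10226 genes (0%) were called and 373 had an unadjusted p under 0.05. Log2 fold changes ran from −1.26 for Pdgfra (SE 1.48) to 1.11 for Abca9 (SE 0.95), and the interval of each of the 6 included 0. DESeq2 called 0 members on either day. Dpt had counts in 11 of the 15 libraries of day 14, with a median of 5.38 CPM and a highest level of 87.5 CPM in delayed replicate 4.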

How the data were processed

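Per the labels and the study's methods, the authors trimmed reads with cutadapt 1.8, removed ribosomal reads from the stump libraries with bowtie2, aligned with TopHat2 2.1.1 to mm10 and ran Cufflinks 2.2.1. The deposited tables hold estimated counts per gene for 23361 genes. The program that wrote them is not given in the sources used here. About 1.18% of stump values and 0.952% and 0.951% of macrophage and Schwann cell values were not whole, and all were rounded. Stump RNA (100 ng) went into rRNA-depleted libraries, and 1000 sorted cells into amplified cDNA.

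Genes at 5 CPM in at least 6 libraries of a comparison were tested with edgeR 4.0.16 (TMM scaling, quasi-likelihood F test, Benjamini-Hochberg adjustment over all genes tested, threshold 0.05) in R 4.3.3. CPM used whole library totals. Totals were 3898778 to 9212709 in the stump, 14928745 to 28499407 in macrophages and 11614940 to 30796823 in the Schwann cell fraction. Stump members under the minimum were compared by an exact permutation test on log2(CPM + 1). Alternatives were DESeq2 1.42.0, limma 3.58.1 voom with sample quality weights, scaling by library size, other filters, sex in the model, a block for the replicate number and leaving out each library. The block kept only libraries whose replicate number was in both groups. Genes named from a list were its 3 smallest p-values, with others marked where named. The members and lists were chosen with earlier results of these data known. The fits were tested on simulated data. A limit of 3 counts was used for libraries at 0, and intervals are 95%.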

Additional observations from a re-analysis of the deposited data

Results flagged for a closer look

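In 8 of 44 groups of libraries that were examined, 2 of them among 20 in the stump, the highest library stood apart from the rest of its group by Dixon's 95% criterion. Chance meets that criterion in about 1 of 20 groups only where values are normally distributed. It was applied here to CPM without logs, so the number of groups cannot be set against chance. In the stump, Pi16 reached 102.6 CPM in immediate replicate 4, where the next library had 59.33 CPM and where the adipocyte markers summed to 948 CPM, the highest of that group. Lypd2 reached 7.848 CPM in immediate replicate 6 against 2.934 CPM in the next. In macrophages, Abca9 reached 139.5 CPM in immediate replicate 3 at day 14 against 105.1 CPM.

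The other 5 were in the Schwann cell fraction. In delayed replicate 9 at day 5, Abca9 was at 25.61 CPM (next 7.273) and Pdgfra at 18.34 CPM (next 6.453). At day 14, Dpt was at 87.48 CPM in delayed replicate 4 (next 25.42), and Pdgfra was at 26.35 CPM in delayed replicate 1 (next 9.136) and at 49.79 CPM in immediate replicate 7 (next 18.19). The causes were not tested.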

How the results depend on the processing

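Sox9 in the stump was called under all 7 other settings and all 16 fits that left out a library, with log2 fold changes from −0.98 to −0.81 in the latter. The number of members called there was 2 with limma-voom and ran from 1 to 3 over the fits that left out a library, with 3 without delayed replicate 1 and 2 without immediate replicate 4. Of 1568 recomputed log2 fold changes of named genes, 1434 kept their direction and side of the threshold, 79 lost and 26 gained a call, and 29 turned direction. The replicate numbers did not pair the stump samples, since 1 of 7 pairs had a correlation over 0.1. In macrophages 7 of 8 pairs at day 5 and 6 of 7 at day 14 were over 0.1 (medians 0.25 and 0.26), short of every pair. Of the paired delayed macrophage libraries, 3 of 8 at day 5 and 5 of 7 at day 14 correlated best with the immediate library of their own number. What libraries of a number share was not tested, and the main macrophage fits had no block. The fit with the replicate number as a block kept only numbers found in both groups. In the stump it therefore also left out delayed replicates 5 and 9. There 2189 stump genes were called against 3221, and 9 calls of named genes were lost (Mpzl2, Sbspon, Ltbp2, Pdgfa, Csf1r, Emr1, Rgs5, Cd74 and Xcr1). Dpt (−0.055) and Adipoq (−0.35) turned direction. The part of the block and that of the libraries left out were not tested apart. Over the other settings the stump calls ran up to 4438 with limma-voom, and of the 3221 calls 1565 were higher, while the share that was higher was 43.0% with library size scaling, 39.0% with no filter and 51.7% with limma-voom. Without single libraries the value of Etv1 in the stump ran from −0.15 to 0.025. Pi16 there was −1.06 with the block and −0.79 with limma-voom and ran from −0.78 to −0.20 without single libraries, and Dpt was 0.21 with limma-voom and ran from 0.50 to 1.01, with no call of either.

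In macrophages at day 5, 3 genes were called by edgeR, against 17 with DESeq2, 8 with sex as a covariate, 12 with the replicate block and 1 to 3 without single libraries. Abca9 was there at −0.00714 with sex, −0.054 with the block and −0.063 to 0.13 without single libraries. From day 5 to day 14 after delayed repair, 547 genes were called, against 891 with DESeq2 and 1020 with limma-voom, and members called were 2 with DESeq2, 1 with limma-voom and 0 to 1 without single libraries. After immediate repair, 964 genes were called, against 1484 with library size scaling, and members called were 2 with limma-voom, 2 with the replicate block (which called Etv1, −1.23, adjusted p = 0.0497) and 1 to 2 without single libraries. In the Schwann cell fraction, genes called at day 5 were 14 with DESeq2, 1 with sex and 0 to 1 without single libraries, and at day 14 3 with DESeq2. At day 14, Sox9 was at 1.60 with limma-voom and −0.69 to 0.53 without single libraries, Cldn1 at 0.48 with limma-voom, 0.17 with sex, 0.33 with the block and −0.33 to 0.36 without single libraries, and Dpt at −1.06 with the block and −0.37 to 1.34 without single libraries. Pdgfra, at −1.26, was at −4.56 with the block, −4.27 with limma-voom and −2.59 without delayed replicate 1, with no call. The causes were not tested. Depth limits Osr2 (14 to 67 counts) and Lypd2 (2 to 50 counts) in the stump.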
